A study of Homo sapiens with 8 samples.

Results

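The genes described here run mRNA decay and mRNA 3' end processing, and the measurement is the change of their m6A peaks when METTL3 is depleted in BCPAP cells, a line from a papillary thyroid carcinoma. Members were chosen by symbol, as genes of the CCR4-NOT (CNOT), PAN2-PAN3 and TOB deadenylation group, the decapping, LSM and XRN group, the exosome, SKI and ERI group, the UPF and SMG group of nonsense-mediated decay, the AGO, TNRC6 and Pumilio group, the poly(A)-binding proteins and poly(A) or terminal nucleotidyl transferases, and the cleavage factors CPSF, CSTF and PCF11. This gave 74 peaks of 44 genes, out of 10987 peaks and 7081 named genes in the authors' deposited table. Another 6 peaks of 5 genes matched by symbol but were described as pseudogene or antisense and stayed out; 0 of them were called. The rule uses no measured value.

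N6-methyladenosine was read by sequencing fragmented poly(A) RNA before (input) and after pull-down with an m6A antibody (IP). There were 8 libraries of BCPAP cells in 4 groups of 2, control input, control IP, METTL3 knockdown input and METTL3 knockdown IP. The control libraries are titled A1Ctrl and B1Ctrl and the knockdown libraries A2sh1 and B2sh3, so each knockdown title occurs once per library type. The labels do not say whether paired libraries are separate cultures, how the knockdown was delivered, or how far METTL3 fell, and METTL3 has 0 peaks in the table. The file holds no value per library: each peak has the log2 fold change, p-value and false discovery rate (FDR) that the authors computed, so no replicate spread can be attached to a value here and the sequencing depth is unknown. A fold change is read as knockdown relative to control, which the file header does not state, and "lower" or "higher" would all turn around if it were the reverse. Whether the fold change corrects for the amount of the transcript in the input is not given in the sources used here. Peaks count as called where the deposited FDR is under 0.05, and "fell" and "rose" are used only of called peaks. Positions are on GRCh38. Of 11 thyroid and epithelial marker genes looked up, PAX8 and KRT8 had a peak each, which says nothing about the level of the others.

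METTL3 is the catalytic subunit of the nuclear complex that writes m6A on mRNA, mostly near stop codons and in 3' UTRs. The mark is known to shorten the life of many transcripts, in part because the reader YTHDF2 binds it and brings in the CCR4-NOT deadenylase. In bulk mRNA decay the PAN2-PAN3 and CCR4-NOT complexes shorten the poly(A) tail, after which the cap is removed and XRN1 digests the body of the mRNA, or the exosome digests it from the 3' end. The tail itself is made in the nucleus, where CPSF, CSTF and PCF11 take part in cutting the new transcript and PAPOLA adds the tail that PABPN1 coats.

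Only the first bases of some transcripts could be read from RefSeq (GRCh38.p14), and they are shown because the antibody also recognises m6Am, the methylated form of an A placed first after the cap. Of the member peaks, 5 cover the RefSeq start from its first base, those of CSTF3, SMG1, SMG9, UPF3B and LSM8; the first 30 transcribed bases follow, 5' to 3', with the first base and any GGAC, the core letters of the common m6A motif, in capitals.
CSTF3: Aattcatatttgagtgggcggtggcgattg
SMG1: Agtggccgtgtgagcgtgaggagctgccgc
SMG9: Attcagttctcgagctccagccctcagcgc
UPF3B: GttccggccaagccgcttcagcgggGGACg
LSM8: Ctttcagttctgcttgctgtcggcaccgct
CSTF3, whose peak was the 1 called in a 5' UTR, starts with A, as do SMG1 and SMG9, while UPF3B starts with G and LSM8 with C. Among 35116 RefSeq starts of the same kind, 44.4% begin with A. The letters GGAC, searched on the transcribed strand only, lie within 50 bases of the start in 18.9% of them. UPF3B holds GGAC from base 26 and SMG9 from base 38 of the transcript, and CSTF3, SMG1 and LSM8 hold none in this window. A match is only a match of letters and marks no methylated base.

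The m6A peaks of decay and 3' end processing genes were called more often than peaks in general, and nearly always as lower. Of the 74 member peaks, 23 were called (31.1%), against 17.1% of all peaks in the authors' deposited table. They comprised 20 lower peaks (27.0%, against 10.6% of all peaks), of which 5 turn slightly above 0 once the table's median of -0.235 is taken off, and 3 higher peaks (4.05%, against 6.52%). By gene, with the peak of the smallest p taken for each, 15 of 44 genes fell (34.1%) and 2 rose (4.55%), and 27 were not called; of all 7081 named genes 14.0% fell and 8.26% rose, 22.3% together. The higher calls belong to PAN2 and PAN3, the paired subunits of a single deadenylase. The median log2 fold change was -0.335 over the member peaks and -0.235 over all peaks. Genes were not sampled at random and peaks of a gene share its transcripts, so these shares are given as a description with no test of the group.

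**Figure D1:**
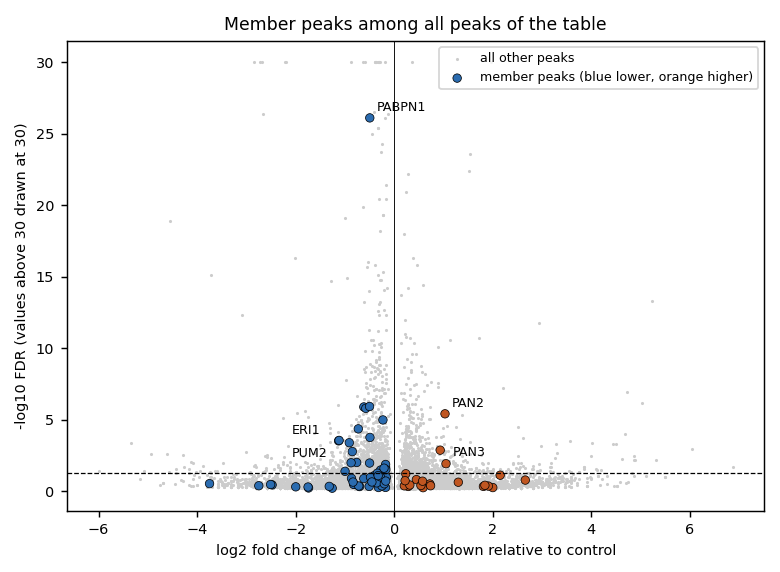
Each point is a peak, with the log2 fold change of m6A on the x axis and -log10 of the deposited FDR on the y axis (log scale, capped); member peaks are coloured, all other peaks are grey, and the dashed line is an FDR of 0.05. PABPN1 stands highest among the 23 member peaks above the line, and the 3 orange points above it are PAN2 and PAN3.

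The calls lay almost entirely in 3' UTRs, as the authors annotated them. Member peaks were more often in 3' UTRs than all peaks were, 43 of 74 (58.1%) against 42.7%. Of those 43, 18 fell and 3 rose, which is 48.8% called; 21.8% of all 3' UTR peaks were called, 15.9% as lower and 5.94% as higher. Outside 3' UTRs the members did not exceed the table: 2 of 31 peaks were called (6.45%), against 13.7% of all peaks outside 3' UTRs. These were the 5' UTR peak of CSTF3 and an exon peak of LSM14A, 1 of 16 peaks in 5' UTRs (16.8% called in the whole table) and 1 of 15 in other exons (11.5% in the whole table). The called changes were moderate, with a median of -0.54 for the 20 lower peaks, against -0.449 for all lower peaks of the table, and only ERI1 and a PUM2 peak fell by 2-fold or more. Large values were mostly not called: 16 member peaks whose log2 fold change was at least 1 in size did not pass, the most extreme being a DCPS exon peak at -3.75 with an FDR of 0.289 per the authors' deposited table.

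**Figure D2:**
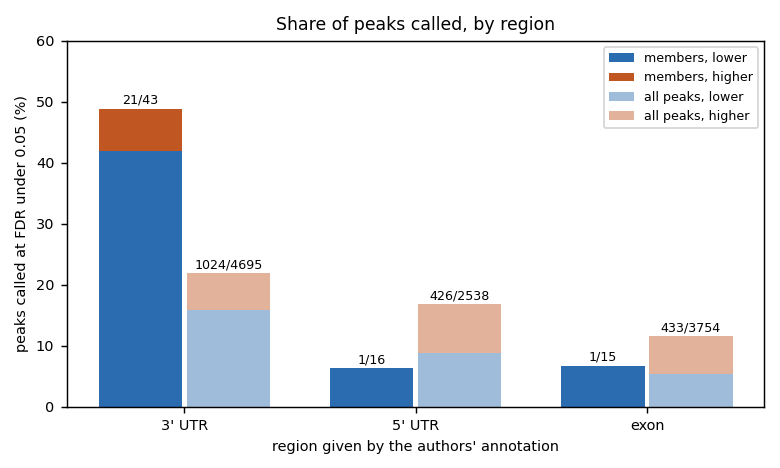
Bars give the percentage of peaks called at an FDR under 0.05 in each annotated region, for members (dark) and all peaks (pale), split into lower (blue) and higher (orange), with called and total peaks above each bar. In 3' UTRs 48.8% of member peaks were called against 21.8% of all; in 5' UTRs and exons the member bars are the shorter ones.

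Deadenylation genes were the group that moved both ways. PAN2, the nuclease of the PAN2-PAN3 complex that trims long poly(A) tails, rose at a 3' UTR peak by 1.03 on the log2 scale, or 2.04-fold, with an FDR of 3.8e-06 per the authors' deposited table (ENSG00000135473, chromosome 12, 56317006 to 56317813). A second called PAN2 peak, at 56317002 to 56317541 and 0.933 with an FDR of 0.00132 per the authors' deposited table, overlaps the first, so the pair can share reads and counts as 1 place. The last PAN2 peak, 90 bases long, had 2.0 with an FDR of 0.543 in the same table and lies beyond the RefSeq end of the gene. All 3 values are above 0, but only the 0.933 peak is listed in the row order of the gene's own strand (explained further on). PAN3, the adaptor that ties PAN2 to the poly(A)-binding protein, rose by 1.05, or 2.07-fold, at its only peak, in the 3' UTR (ENSG00000152520, chromosome 13, 28293418 to 28293957; FDR of 0.0117 per the authors' deposited table). The called PAN2 and PAN3 values differ little from each other in size.

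CCR4-NOT showed the other direction where it was called. CNOT2, a structural subunit that holds the complex together, fell at a 3' UTR peak by 0.763 on the log2 scale, to 0.589-fold, with an FDR of 0.00955 per the authors' deposited table (ENSG00000111596, chromosome 12, 70346201 to 70346470). The other CCR4-NOT genes with peaks were not called: CNOT6, a catalytic deadenylase, had -0.244 with an FDR of 0.144, and CNOT10 and CNOT3 had -0.242 and -0.704 per the authors' deposited table. CNOT4, a ubiquitin ligase associated with the complex, had -0.51 and 0.205 at separate 3' UTR peaks, both with FDRs above 0.4 per the authors' deposited table. The 0.205 peak spans 21579 bases. CNOT1, the scaffold of the complex, has 0 peaks in the table. TOB1, an antiproliferative protein that recruits CCR4-NOT, had 0.234 at its broader 5' UTR peak with an FDR of 0.0589, just outside the threshold, and 1.81 at a narrow overlapping peak with an FDR of 0.451 per the authors' deposited table. The single peak of its relative TOB2 had -0.32 per the authors' deposited table and was not called. Of the 13 peaks of the 9 deadenylation genes, 1 fell (7.69%, against 10.6% of all peaks) and 3 rose (23.1%, against 6.52%). The 3 include the overlapping PAN2 pair, which counts as 1 place. By gene, 1 of 9 fell (11.1%, against 14.0% of all named genes) and 2 rose (22.2%, against 8.26%).

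Among decapping genes every call was lower, at 4 of 13 peaks (30.8%, against 17.1% of all peaks called). By gene, 3 of 6 were called (50.0%, against 22.3% of all named genes). LSM14A, an RNA-binding protein needed for the assembly of processing bodies, fell at 2 of its 3 peaks. Its 3' UTR peak had -0.73, or 0.603-fold, with an FDR of 4.27e-05, and its peak from exon 4 of 10 had -0.618 with an FDR of 1.26e-06 per the authors' deposited table (ENSG00000257103, chromosome 19, 34229037 to 34229276 and 34215284 to 34219547). The 5' UTR peak of LSM14A had -0.397 with an FDR of 0.201 in the same table, so all 3 values point down. The paralog LSM14B fell at the 3' UTR peak that reaches its RefSeq 3' end, at -0.493 with an FDR of 0.00017 per the authors' deposited table (chromosome 20, 62134956 to 62135374), whereas its broader peak 5' of that had -0.16 and an FDR of 0.107. PATL1, which links the deadenylated mRNA to decapping, fell slightly, at -0.277 with an FDR of 0.0324 per the authors' deposited table (chromosome 11, 59636746 to 59637105).

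The remaining decapping members did not pass. LSM8, a subunit of the nuclear LSM ring that binds U6 snRNA, had -0.403 in its 5' UTR with an FDR of 0.0794 and -0.251 in its 3' UTR per the authors' deposited table. LSM5, shared by the nuclear and the cytoplasmic ring, had 1.91 with an FDR of 0.427 per the authors' deposited table. DCPS, which hydrolyses the cap left over after decay from the 3' end, had 3 exon peaks from -3.75 to -1.74 and another at 0.585, with FDRs from 0.289 to 0.579 per the authors' deposited table. That last peak is annotated to an exon of another gene identifier. DCP2, the decapping enzyme, and XRN1 and XRN2, the 5' to 3' exonucleases, have 0 peaks in the table.

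All 6 genes of the exosome and 3' to 5' decay group had a value below 0. With 1 peak each, 2 of them were called (33.3%, against 22.3% of all named genes). ERI1, an exonuclease that trims histone mRNA ends, fell most among the called member peaks, to 0.457-fold or -1.13 on the log2 scale at its 3' UTR peak, with an FDR of 0.000295 per the authors' deposited table (ENSG00000104626). SKIV2L, the helicase that feeds mRNA into the cytoplasmic exosome, fell to 0.707-fold at -0.501 with an FDR of 0.0105 per the authors' deposited table (ENSG00000204351, chromosome 6, 31969482 to 31969751). The exosome subunits themselves were not called. EXOSC9, a ring subunit, had -0.482 with an FDR of 0.103, and EXOSC1, a cap subunit, had -0.358 with an FDR of 0.254 per the authors' deposited table. EXOSC3 and EXOSC7 had -0.721 and -1.26, but these peaks lie outside the RefSeq bounds of the genes they are assigned to, over TRMT10B and CLEC3B (values from the authors' deposited table).

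In nonsense-mediated decay the called changes were of unequal size. They were 2 of 10 peaks (20.0%, against 17.1% of all peaks) and 2 of 6 genes (33.3%, against 22.3% of all named genes). SMG1, the kinase that phosphorylates UPF1, fell at its 3' UTR peak to 0.67-fold, at -0.578 with an FDR of 1.58e-06 per the authors' deposited table (ENSG00000157106, chromosome 16, 18808758 to 18811831). Its 5' UTR peak had the other sign, 1.3 with an FDR of 0.23 per the authors' deposited table, and was not called. SMG1 has near-identical pseudogene copies on the same chromosome, so reads may be shared among them and its values are uncertain. UPF3A, a paralog of the exon junction factor UPF3B, was called at -0.176, or 0.885-fold, with an FDR of 0.0132 per the authors' deposited table, over a span of 18630 bases that includes introns; with the median of the table subtracted it turns to 0.059. UPF2 had 0.22 with an FDR of 0.18, and SMG9 had 0.722 and -0.202 per the authors' deposited table. The 3 peaks of UPF3B ran from -2.75 to 1.84 with FDRs from 0.221 to 0.406 in the same table. The -2.75 peak is annotated to another gene's exon, and the 1.84 peak spans 17124 bases, past the RefSeq 3' end of UPF3B. Both are listed in the row order of the opposite strand (explained further on). UPF1, the central helicase, has 0 peaks in the table.

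Of the microRNA and Pumilio genes only PUM2 was called. That is 1 of 5 genes (20.0%, against 22.3% of all named genes) and 2 of 10 peaks (20.0%, against 17.1% of all peaks). Both are near the shares of the whole table. PUM2, which binds short elements in 3' UTRs and recruits CCR4-NOT to them, fell at 2 separate 3' UTR peaks. The peak at 20249979 to 20250248 on chromosome 2 had -1.12, or 0.46-fold, with an FDR of 0.000275 and the peak at 20251386 to 20251596 had -0.876, or 0.545-fold, with an FDR of 0.01 per the authors' deposited table (ENSG00000055917). AGO2, the argonaute that cleaves its targets, had -0.284 and -0.868 at 3' UTR peaks with FDRs of 0.0955 and 0.123, and 2.15 with an FDR of 0.0741 at a peak annotated to another gene's exon, per the authors' deposited table. AGO1 had -1.32 with an FDR of 0.449 per the authors' deposited table. The GW182 family members TNRC6B and TNRC6C, which connect argonaute to the deadenylases, had values from -2.0 to 0.316 per the authors' deposited table and were not called at any of 4 peaks.

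Genes that make or bind the poly(A) tail had 6 of 11 peaks called (54.5%, against 17.1% of all peaks), the largest share of the 7 groups by peak. By gene, 4 of 8 (50.0%, against 22.3% of all named genes) equalled the share of the decapping and the cleavage genes. The 6 called peaks were all lower as deposited. However, PABPC4 and the weaker PAPOLA peak turn above 0 when the median of the table is subtracted. PABPN1, the nuclear poly(A)-binding protein that sets tail length, had the smallest FDR of all member peaks. Its 3' UTR peak at 23325231 to 23325768 on chromosome 14 fell to 0.709-fold, at -0.497 with an FDR of 7.94e-27, and a second at 23326006 to 23326155 fell to 0.531-fold, at -0.913 with an FDR of 0.000398 per the authors' deposited table (ENSG00000100836). Both also lie within the readthrough gene BCL2L2-PABPN1 in RefSeq, from which they cannot be told apart. PAPOLA, the main nuclear poly(A) polymerase, fell at 2 peaks of its 3' UTR, at -0.502 with an FDR of 1.17e-06 and at -0.208 with an FDR of 0.024 per the authors' deposited table (chromosome 14, 96562772 to 96565343 and 96556223 to 96562593). An exon peak assigned to PAPOLA, before its RefSeq start, had 0.541 with an FDR of 0.388 per the authors' deposited table. TENT5A, a non-canonical poly(A) polymerase, fell to 0.5-fold, at -0.999 with an FDR of 0.0398, the called member peak closest to the threshold (chromosome 6, 81745796 to 81746036, the authors' deposited table). PABPC4, a cytoplasmic poly(A)-binding protein, fell least, at -0.171 or 0.888-fold with an FDR of 0.0302 in the same table.

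The other transferases were not called. TENT4A, which adds mixed tails, had -0.327 with an FDR of 0.0794 per the authors' deposited table, and its relative TENT4B had 0.574 at a 5' UTR peak spanning 57783 bases. TENT5B had -0.173 with an FDR of 0.191, and PAPOLG, a second nuclear poly(A) polymerase, had 0.737 with an FDR of 0.404 per the authors' deposited table.

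Cleavage factor genes had 3 called peaks of 11 (27.3%, against 17.1% of all peaks), all lower as deposited. Both CPSF7 peaks turn above 0 when the median of the table is subtracted. CSTF3, a subunit of the cleavage stimulation factor that binds downstream of the cut, fell at a 5' UTR peak by 0.852 on the log2 scale, to 0.554-fold, with an FDR of 0.00166 per the authors' deposited table (ENSG00000176102, chromosome 11, 33156764 to 33161498). Of the other CSTF3 peaks, a second labelled 5' UTR had the opposite sign and the highest value of any member peak, 2.66 with an FDR of 0.163 per the authors' deposited table, over 25278 bases beyond the RefSeq bounds of CSTF3, and an exon peak had -0.815 with an FDR of 0.313; neither was called. CPSF7, a subunit of cleavage factor I, fell by little at 2 peaks of its 3' UTR, at -0.23 with an FDR of 1.02e-05 and at -0.183 with an FDR of 0.0234 per the authors' deposited table (chromosome 11, 61402970 to 61403657 and 61404463 to 61406079). Its 5' UTR peaks had -0.178 and -2.48 with FDRs of 0.531 and 0.352 per the authors' deposited table, so all 4 values are below 0. CPSF2, a core subunit next to the nuclease, had -0.618 with an FDR of 0.128, and PCF11, a factor that also ends transcription, had values from -0.825 to 0.449 at 3 exon peaks, with FDRs from 0.151 to 0.454 per the authors' deposited table.

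**Figure D3:**
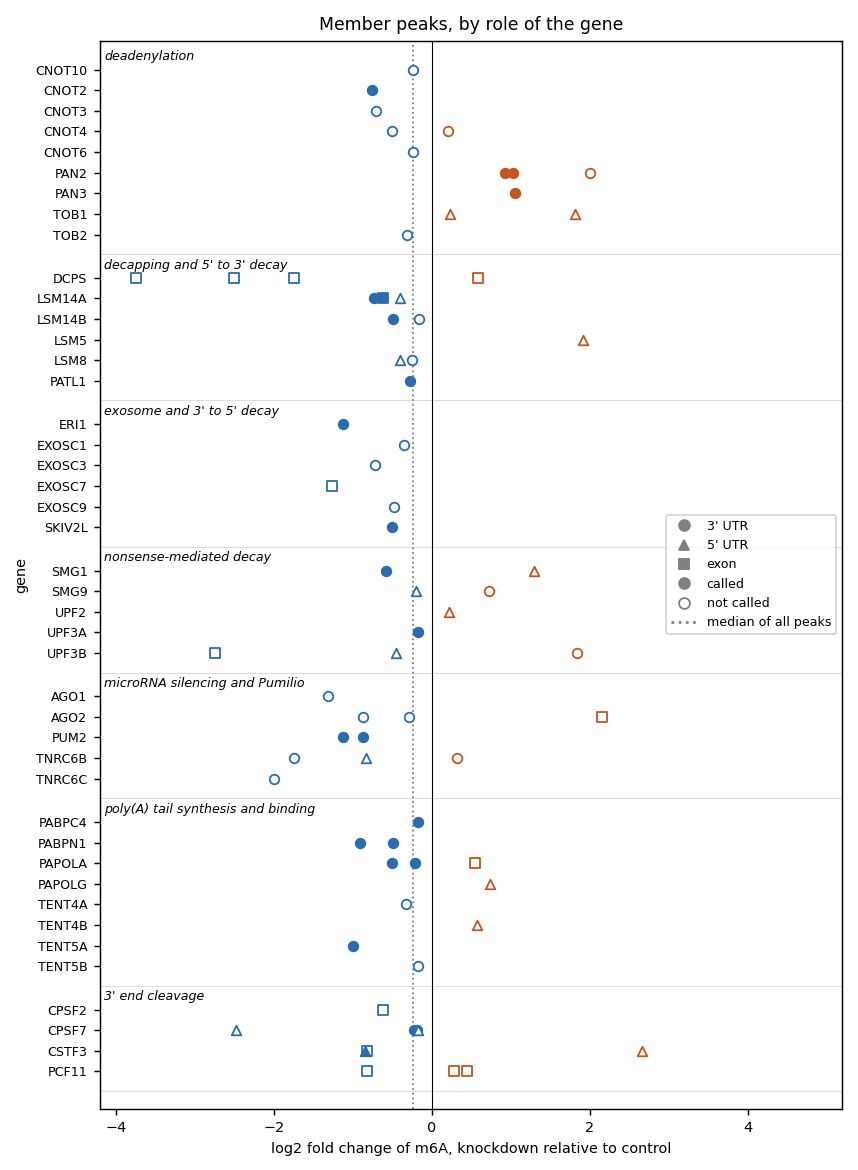
Member peaks are drawn by their deposited log2 fold change (x axis), with genes on the y axis grouped by role; filled symbols are called, open ones are not, the symbol gives the region, and the dotted line is the median of all peaks, -0.235. The only filled orange symbols belong to PAN2 and PAN3, and the widest values, such as those of DCPS, are open.

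Peaks of the same gene often differed in sign, though not where both were called. Among 18 member genes with more than 1 peak, all peaks had the same sign in 8. In the 6 genes with more than 1 called peak, the called peaks of each gene had the same direction. These genes were CPSF7, LSM14A, PABPN1, PAN2, PAPOLA and PUM2. The 2 called PAN2 peaks overlap and can share reads, and 20 of the 23 called member peaks were lower. Agreement of sign within a gene was not counted over all genes of the table, so it is not given as a trait of the members. Of 9 member genes with separate 3' UTR peaks, the order of values along the 3' UTR was read in the 7 with at least 2 such peaks in the row order of the gene's own strand (explained further on). In these the value was lower at the peak nearer the RefSeq 3' end. This held in all 4 genes with 2 lower calls: PABPN1 (-0.913 near the end, -0.497 farther), PAPOLA (-0.502 and -0.208), PUM2 (-1.12 and -0.876) and, by 0.047 only, CPSF7 (-0.23 and -0.183), all from the authors' deposited table. Counting uncalled peaks too, it held in the 7 genes, which adds LSM14B, CNOT4 and TNRC6B. AGO2, for which no strand was found, was not among the 7 genes, nor was PAN2, with only 1 3' UTR peak in that row order. The PAN2 peak with the higher value (2.0) lies beyond the RefSeq end of the gene and in the other row order. The farther peaks of CNOT4 and PAPOLA span 21579 and 6371 bases, so their 3' UTR label may not hold over the whole span. The same order was seen in 62.5% of 432 other genes with separate 3' UTR peaks, and in 12 of 15 others with 2 or more lower calls. The median difference between the nearer and the farther peak was -0.333 in the 7 genes and -0.18 in the 432. This feature was singled out after the values were seen, and no test was made of it.

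**Figure D4:**
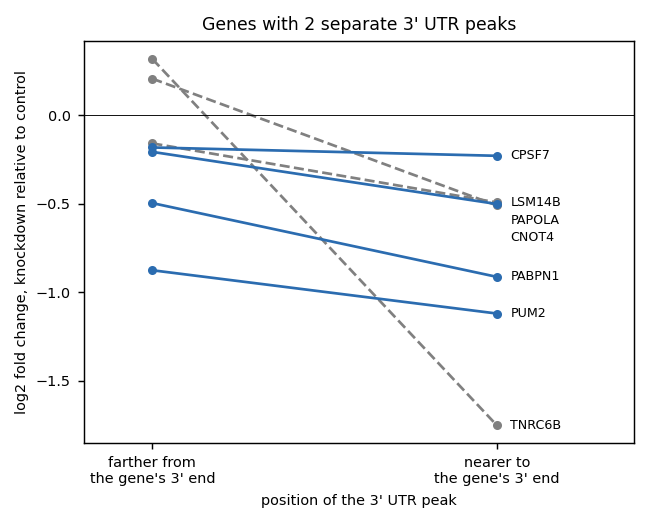
Each line joins the log2 fold changes (y axis) of the 2 separate 3' UTR peaks of a gene, the farther from the gene's 3' end on the left and the nearer on the right; solid blue lines are genes with both peaks called, dashed grey lines the others. All 7 lines run downward, from -0.047 in CPSF7 to -2.07 in TNRC6B. The farther peaks of CNOT4 and PAPOLA span 21579 and 6371 bases.

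The gene name of a peak does not always name the strand it came from. The table has no strand column, but its rows run through each chromosome in 2 passes. Among peaks of other genes with a strand in RefSeq, 88.7% of 4110 peaks in the first run belong to genes on the plus strand and 87.4% of 3772 in the second run to genes on the minus strand. By this order 11 of 63 member peaks (17.5%) are listed in the run opposite to their gene, against 11.9% of 7882 other peaks. Several of them overlap a RefSeq gene that is not the assigned one: LINC00294 and CSTF3-DT for 2 peaks assigned to CSTF3, TOB1-AS1 for TOB1, PAPOLA-DT for PAPOLA, TRMT10B for EXOSC3 and TMC6 for TNRC6C. None of these 6 was called. Of the 11, 1 was called, the PAN2 peak at 1.03; the overlapping PAN2 peak at 0.933 is listed in the run of the gene's own strand. Without the 11 peaks the counts were 20 lower and 2 higher. The other 52 of the 63 held 16 lower and 2 higher calls. Among peaks of other genes, 11.1% were called lower and 6.84% higher in the run of the gene's own strand. In the opposite run these shares were 10.3% and 5.43%, so 1 call among 11 peaks is not set apart. For the remaining 11 member peaks no strand was found.

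All values sit on a table whose median is below 0, at -0.235. With that shift taken off every peak, 15 of the 20 lower calls stayed below 0 and 5 moved just above it, both peaks of CPSF7 (0.005 and 0.052), PABPC4 (0.064), UPF3A (0.059) and the weaker peak of PAPOLA (0.027). PATL1 was left at -0.042. Others stayed well below 0, among them ERI1 at -0.895, PUM2 at -0.885 and -0.641, TENT5A at -0.764, PABPN1 at -0.678 and -0.262, CNOT2 at -0.528, and LSM14A at -0.495 and -0.383. PAN2 and PAN3 moved further up, to between 1.17 and 1.29.

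Other genes of the same pathways, which the symbols do not cover, were called about as often as any gene. Of 89 symbols listed, some of them older and newer names of the same gene, 32 had a peak. With 1 peak per gene, 3 fell, 4 rose and 25 were not called, which is 21.9% called against 22.3% of all named genes. GSPT1, the release factor eRF3a that acts in nonsense-mediated decay, fell to -0.581 in the 5' UTR, with an FDR of 2.4e-06 per the authors' deposited table. DIS3, the nuclease of the nuclear exosome, fell at -0.795 with an FDR of 0.0162, and MOV10, a helicase that works with UPF1, at -0.291 with an FDR of 0.0234, both in 3' UTRs, per the authors' deposited table. DICER1, which cuts microRNA precursors, rose by 0.463 with an FDR of 0.00191, and GIGYF1, a partner of the cap-binding repressor EIF4E2, rose by 0.829 with an FDR of 0.00692 per the authors' deposited table. LIMD1, which binds argonaute, and MEX3C, an RNA-binding ubiquitin ligase, rose in their 5' UTRs by 0.28 and 0.345 with FDRs of 0.00214 and 0.000741 per the authors' deposited table. The median over these 32 genes was -0.185, against -0.38 over the 44 member genes and -0.248 over all named genes, each with 1 peak per gene.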

How the data were processed

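MeRIP-seq was carried out on BCPAP cells; samples were grouped by title, genotype and antibody into 4 groups of 2 libraries. The submitters' processing notes list the builds hg38 and GRCh38 and the tools edgeR, StringTie, HOMER, HISAT2, ChIPseeker and fastp, with no role for any; how differential peaks were called, filtered or pooled is not given in the sources used here. Analysis started from 1 table of the authors' comparison. The log2 fold change was deposited by the authors; the up or down label had the matching sign in every peak. Each p-value is theirs too, per the file headers. The FDR score was deposited by the authors as log10 and was raised to the linear scale here. No library value is in the table, so the depth is unknown, no replicate could be left out and no test was fitted; each call is the authors' FDR.

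Members were taken by symbol, and calls used an FDR under 0.05. The 1 peak per gene was that with the smallest p. All 17 genes with a called peak are named with all of their peaks; beside them, the largest change of each role group, 6 core genes and, chosen after their values were seen, the other members are given, except 1 that is not reported here. Members, lists and tests were chosen with earlier results of these data known. Promoter starts, strands and gene bounds came from RefSeq (GRCh38.p14), on the primary chromosomes of the same build; strands were found for 63 of 74 peaks. The table's rows of each chromosome were split at the largest backward step of the start position. The counting code was tested on simulated data. A Benjamini-Hochberg value recomputed over the table was smaller than the deposited FDR, whose median ratio to it was 1.9, so the listed peaks may not be all that were tested. The software was matplotlib 3.10.9, scipy 1.17.1, numpy 2.4.6 and pandas 2.3.3 under Python 3.11.15.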

Additional observations from a re-analysis of the deposited data

How the results depend on the processing

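Member peaks kept more lower than higher calls under every alternative tried. So did all peaks of the table at each setting where they were counted, and the shares are given side by side. At a deposited FDR under 0.01 there were 14 called member peaks, against 9.24% of all peaks called. Of these, 12 were lower (16.2%, against 5.83% of all peaks) and 2 higher (2.7%, against 3.4%). By gene there were 11 called, 10 lower and 1 higher. At an FDR under 0.05 with a minimum of 0.5 on the absolute log2 fold change there were 15 peaks, against 7.73% of all peaks. Of these, 12 were lower (16.2%, against 4.67%) and 3 higher (4.05%, against 3.06%). By gene there were 11 called, 9 lower and 2 higher. At an authors' p under 0.01, where 22.5% of all peaks were called, 23 member peaks were lower (31.1%, against 13.9%). Another 5 were higher (6.76%, against 8.61%), and by gene 18 were lower and 4 higher. At a recomputed Benjamini-Hochberg value under 0.05, where 24.2% of all peaks were called, 24 member peaks were lower (32.4%, against 15.0%). Another 5 were higher (6.76%, against 9.28%), and by gene 18 were again lower and 4 higher. The median of all peaks, once subtracted, left 15 lower and 8 higher peaks, and 12 lower and 5 higher genes; the higher share of member peaks was then 10.8%, above the 7.89% of all peaks, where as deposited it was below, and the lower share was 20.3% against 9.24%. Taking the peak with the largest change for each gene left 12 called genes, 11 lower and 1 higher, PAN3. The share over all named genes was not computed for this choice, nor for the gene counts at the other alternatives. Shares of all peaks are no measure for gene counts: at the main setting 22.3% of named genes but 17.1% of all peaks were called. Overlapping peaks taken as 1 place gave 20 lower and 2 higher; leaving out spans over 5000 bases gave 18 lower and 3 higher; leaving out exons of another gene changed no count. Leaving out peaks in the row run of the other strand, chosen after the data were seen, gave 20 lower and 2 higher. Of the pathway genes outside the symbols, 5 were called at an FDR under 0.01, 1 lower and 4 higher. At p under 0.01, 12 were called, 7 lower and 5 higher. Shares over all named genes were not computed at these settings. LSM8, of the nuclear LSM ring that binds U6 snRNA, was kept with the decapping genes, and neither of its peaks was called. No alternative without members of another function was run. No paired analysis was possible because the table holds no value per library. With the depth unknown, whether members without a peak were measurable was not tested.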

Other observations

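The 6 peaks dropped for a pseudogene or antisense description had log2 fold changes that were higher in 4 and lower in 2, with a smallest FDR of 0.363 in the authors' deposited table.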
